A study of Mus musculus with 35 samples.

Results

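Glucocorticoid-responsive stress genes were followed in the hippocampus of mice with experimental temporal lobe epilepsy. They are 10 of the 32544 genes in the count tables, chosen by symbol: the corticosteroid receptors Nr3c1 and Nr3c2, the receptor targets Fkbp5, Sgk1, Tsc22d3, Errfi1, Zbtb16, Hif3a and Plin4, and the cell cycle inhibitor Cdkn1a. The animals were adult male C57BL/6JOlaHsd mice. KA mice received kainic acid, a glutamate receptor agonist, into the amygdala, which triggers status epilepticus, and lorazepam later to curtail it, whereas control mice received phosphate-buffered saline (PBS) by the same route. Hippocampi were taken 24 h or 2 weeks afterwards. RNA of single mice was sequenced either as total RNA (input) or after pulldown with an antibody against N6-methyladenosine (m6A), a methyl mark on adenosines of mRNA. There were 19 m6A libraries (5 KA and 3 PBS mice at 24 h, 6 KA and 5 PBS mice at 2 weeks) and 16 input libraries, of which the 13 with at least 100000 counts were used (3 KA mice and 1 PBS mouse at 24 h, 6 KA and 3 PBS mice at 2 weeks).

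Glucocorticoids are released by the adrenal gland in stress and bind a pair of nuclear receptors that hippocampal cells express at high levels. The mineralocorticoid receptor, encoded by Nr3c2, has the higher affinity and is largely occupied at rest, while the glucocorticoid receptor, encoded by Nr3c1, becomes occupied when hormone rises. The bound receptors enter the nucleus, attach to a DNA element built of inverted copies of a short hexamer, and raise transcription of genes such as Fkbp5, Sgk1, Tsc22d3, Zbtb16 and Plin4. FKBP5 is a co-chaperone that lowers the affinity of the receptor for its ligand and so closes a feedback loop. These genes are expressed in neurons, glia and vessels alike. In bulk tissue, fewer cells of a type and less RNA per cell cannot be told apart.

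The window around each transcription start, from 250 bases before to 50 after it, was searched in the RefSeq promoters of build GRCm38.p6. Of the 10 genes, 8 were matched, through 17 windows, and Nr3c1 and Zbtb16 were not. The hexamer AGAACA, on either strand (TGTTCT on the other), was present in 4 of these windows, which belong to Sgk1 and Tsc22d3, and in 19% of all 32851 windows. The complete glucocorticoid response element, which holds the hexamer and its inverted copy with 3 bases between them, was scored over its 12 hexamer bases. It was found with at most 2 of them changed in 2 windows, both of Sgk1, against 1.84% of all windows. A window of Sgk1 held it with no change, as did 3 windows in all (0.00913%). That element runs from 189 to 175 bases before the start, and the other 5 windows of Sgk1 lacked an unchanged copy. Cdkn1a had no AGAACA in either of its windows. It was also searched for ACATGT, the core of the element bound by p53, which reads the same on both strands. This search was not in the original plan and was added because Cdkn1a is the best known p53 target. A match was therefore likely beforehand. The upstream window of Cdkn1a held this core at 49 and at 39 bases before the start, and 0.329% of all windows hold it at least 2 times. Tsc22d3 and Nr3c2 held the core in 1 window each, in Tsc22d3 overlapping the AGAACA match. Such matches describe letters in a window and not occupancy by a receptor. The 250 bases before the start follow for the Sgk1 window with the unchanged element, for the Tsc22d3 window with a single hexamer, and for Cdkn1a, the gene that stood apart in m6A libraries at 24 h. Capitals mark AGAACA on either strand in Sgk1 and Tsc22d3, and ACATGT in Cdkn1a.
Sgk1, chr10:21993640-21993889, plus strand: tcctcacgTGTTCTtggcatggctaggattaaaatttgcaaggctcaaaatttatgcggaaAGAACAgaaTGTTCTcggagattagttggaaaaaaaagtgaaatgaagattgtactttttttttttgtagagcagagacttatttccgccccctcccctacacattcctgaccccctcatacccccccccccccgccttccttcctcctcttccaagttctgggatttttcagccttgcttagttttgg
Tsc22d3, chrX:140600523-140600772, minus strand: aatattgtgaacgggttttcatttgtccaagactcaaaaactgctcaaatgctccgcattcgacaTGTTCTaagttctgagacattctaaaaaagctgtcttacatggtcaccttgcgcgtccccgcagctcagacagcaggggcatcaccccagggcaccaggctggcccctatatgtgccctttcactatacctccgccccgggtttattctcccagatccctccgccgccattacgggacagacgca
Cdkn1a, chr17:29090729-29090978, plus strand: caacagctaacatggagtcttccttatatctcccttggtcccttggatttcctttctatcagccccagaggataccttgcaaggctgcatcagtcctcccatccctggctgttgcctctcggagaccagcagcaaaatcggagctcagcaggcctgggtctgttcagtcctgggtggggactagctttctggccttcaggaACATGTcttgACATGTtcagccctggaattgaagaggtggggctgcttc

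Total counts of the m6A libraries ran from 1652933 to 34564536 (median 15291875), and those of the 13 input libraries from 3057578 to 12694434 (median 5498360). Column names of the m6A libraries carry a prefix of 3, 4 or 5, called library sets here, and input columns carry the prefix Input or none. What these prefixes stand for was not given in the sources used here, and they were divided unevenly between KA and PBS mice. For 27 of the 35 libraries the column name does not state the assay, which was inferred from the prefix, so the split into m6A and input is not certain for those. At 24 h, m6A libraries of KA mice were in set 3 (mice 67, 98 and 8) and set 4 (mice 97 and 79), and those of PBS mice in set 4 (mice 71 and 73) and set 5 (mouse 1). At 2 weeks, KA mice were in sets 3 (mice 42, 5 and 6) and 5 (mice 21, 7 and 9), and PBS mice in sets 4 (mice 50 and 78) and 5 (mice 2, 3 and 4). Markers of hippocampal and neuronal cells were detected throughout: the summed level of 8 hippocampal markers ran from 409 to 1773 CPM (counts divided by the library total and scaled to 1000000), and 1 of the 8 was at 0 in some library, which was an m6A library of a KA mouse at 24 h.

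**Figure D1:**
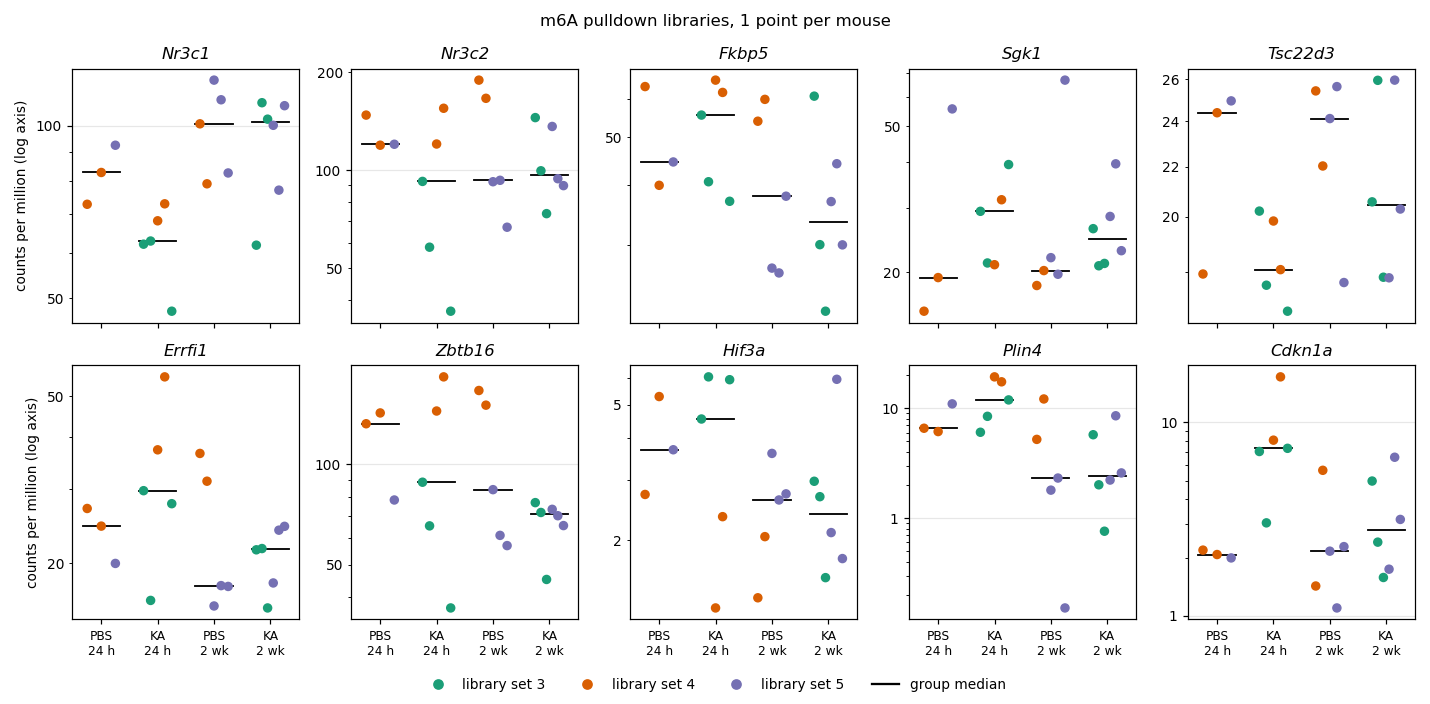
Levels of the 10 genes in the 19 m6A libraries, in CPM on a log axis, with 1 point per mouse coloured by library set and a line at each group median. The 5 Cdkn1a points of KA mice at 24 h sit between 3.02 and 17.2 CPM, above the 3 PBS points (1.99 to 2.19), and the 2 KA points of set 4 are the highest of that time for Zbtb16 and Errfi1.

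Cdkn1a had the largest log2 fold change of the 10 genes in 3 of the 4 comparisons of KA with PBS (2.06 in m6A at 24 h, 1.76 in input at 24 h and 1.90 in input at 2 weeks), whereas in m6A at 2 weeks Zbtb16 (-0.57) exceeded it in size (0.49). Yet none of the 10 was called at a threshold of 0.05 on edgeR's adjusted p in any of the 4. Few genes did so at all: 1 of 16470 genes tested passed in the m6A libraries at 24 h (0.00607%), 0 of 16157 at 2 weeks (0%), 0 of 13752 in input at 2 weeks (0%), and 0 of 17644 in input at 24 h (0%). The gene that passed was Tm4sf1, a membrane protein gene named here after its value was seen. DESeq2, the other tool run, called 156, 15, 116 and 197 of the same genes in these comparisons, and of the 10 members Cdkn1a in m6A at 24 h. At an unadjusted p under 0.05 in edgeR the number of members was 1 of 10 at 24 h and 0 of 10 at 2 weeks in m6A libraries. Beside these stood 875 of 16470 and 809 of 16157 genes in all. In input libraries the number was 5 of 10 at 2 weeks (Cdkn1a, Fkbp5, Zbtb16, Nr3c1 and Plin4), beside 1938 of 13752 genes. It was 0 of 10 at 24 h, beside 1628 of 17644. The median log2 fold change (KA over PBS) of the 10 genes was 0.00 in m6A at 24 h, against 0.08 over all genes tested. It was -0.09 in m6A at 2 weeks against 0.00, and 0.32 in input at 2 weeks against 0.02. Whether CPM values of KA and PBS libraries overlapped was also recorded. In m6A at 24 h, 1 of 10 genes did not overlap (Cdkn1a), against 3.71% of all genes. In m6A at 2 weeks there were 0 of 10, against 0.594%. For input at 2 weeks there were 2 of 10, with Fkbp5 higher and Nr3c1 lower in KA mice, against 6.44%.

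**Figure D2:**
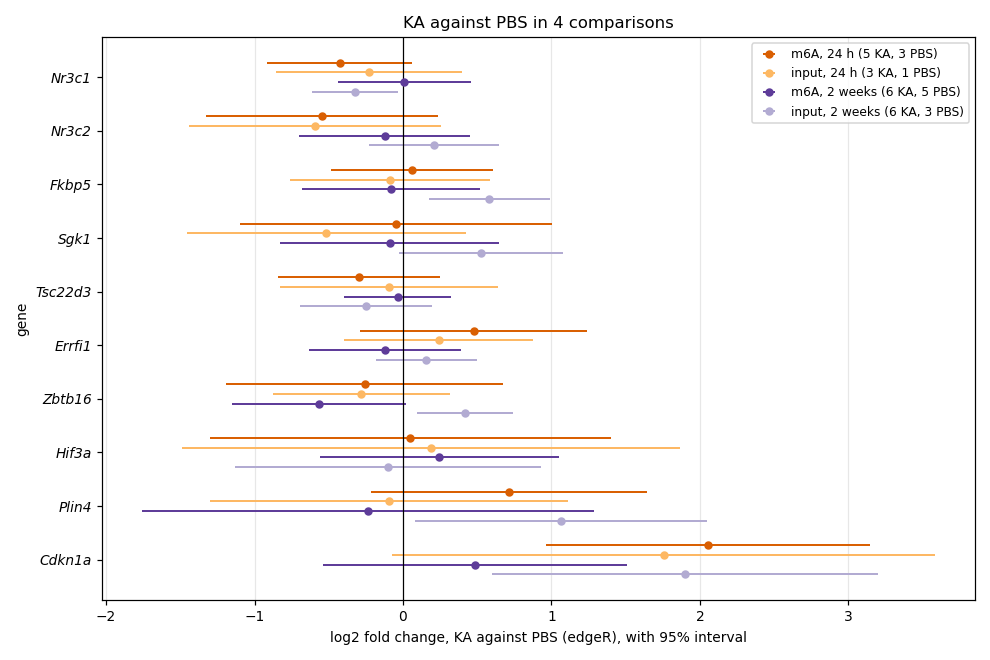
Log2 fold change of KA over PBS for the 10 genes in 4 comparisons, with bars for the 95% interval from the edgeR fit. The intervals of Cdkn1a lie above 0 in m6A at 24 h (0.97 to 3.15) and in input at 2 weeks (0.60 to 3.20), and in input at 2 weeks those of Fkbp5, Zbtb16, Plin4 and Nr3c1 also leave out 0.

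Nr3c1, the glucocorticoid receptor gene, was lower in input RNA of KA mice at 2 weeks. The PBS mice had 139, 120 and 120 CPM, and the 6 KA mice ran from 74.3 to 113 with a median of 98.9. Every KA mouse lay below every PBS mouse, and the log2 fold change was -0.32 (SE 0.13, edgeR adjusted p = 0.323). In m6A libraries at 2 weeks the groups overlapped widely. PBS mice had 101, 79.2, 120, 111 and 82.7 CPM and KA mice 61.9 to 110 with a median of 101, a log2 fold change of 0.01 (SE 0.21, edgeR adjusted p = 0.995). At 24 h the m6A libraries of PBS mice had 72.9, 82.8 and 92.4 CPM and those of KA mice 62.1, 62.9, 68.2, 73.1 and 47.5. KA mouse 79, at 73.1, was the sole KA mouse above a PBS mouse. KA over PBS gave a log2 fold change of -0.43 (SE 0.22, edgeR adjusted p = 0.983), and of -0.27 within set 4. The lowest Nr3c1 level of both assays at 24 h came from KA mouse 8, with 35.4 CPM in input.

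Nr3c2, the mineralocorticoid receptor gene, overlapped between KA and PBS libraries wherever more than 1 PBS mouse was measured. In m6A at 24 h PBS mice had 148, 119 and 120 CPM and KA mice 92.4, 58.1, 120, 155 and 37.0, so that the 3 KA libraries of set 3 were the low ones and the 2 of set 4 lay within the PBS range (mouse 97) and above it (mouse 79). This gave a log2 fold change of -0.54 (SE 0.35, edgeR adjusted p = 0.983), and of -0.07 within set 4. At 2 weeks the m6A libraries of PBS mice 50 and 78 in set 4 had 189 and 166 CPM, and those of PBS mice 2, 3 and 4 in set 5 had 92.2, 93.2 and 66.9. KA mice, none of which was in set 4, had 73.6 to 145 CPM (median 96.9). Across all libraries the log2 fold change was -0.12 (SE 0.27), and within set 5 it was 0.42, the opposite sign. Input libraries of 2 weeks gave 0.21 (SE 0.20, edgeR adjusted p = 0.659), with PBS mice at 107, 79.3 and 80.1 CPM and KA mice at 76.1 to 140.

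Fkbp5, the receptor co-chaperone and a sensitive readout of glucocorticoid exposure, was higher in input RNA of KA mice at 2 weeks. PBS mice had 21.5, 18.3 and 17.8 CPM, and the 6 KA mice 21.8 to 38.1 with a median of 25.4. All KA mice lay above all PBS mice, with KA mouse 6 (21.8) next to PBS mouse 2 (21.5). This was a log2 fold change of 0.58 (SE 0.19, edgeR adjusted p = 0.268). In m6A libraries at the same time PBS mice had 54.0, 59.9, 26.9, 26.3 and 37.9 CPM and KA mice 22.0 to 60.8 (median 33.5). The groups overlapped, and the 2 highest PBS values were those of set 4. Across all libraries the log2 fold change was -0.08 (SE 0.28), and within set 5 it was 0.35. At 24 h it was 0.06 (SE 0.25) in m6A libraries, where PBS mice had 63.6, 39.9 and 44.5 CPM and KA mice 37.0 to 65.6, and its sign turned when any 1 of 4 libraries was left out (PBS mouse 73 or 1, KA mouse 97 or 79, -0.05 at the lowest). In input at 24 h the single PBS mouse had 39.6 CPM, above KA mice 67, 98 and 8 with 32.6, 23.0 and 33.6 CPM.

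Sgk1, the serum- and glucocorticoid-regulated kinase whose window carries the unchanged response element, spanned a wider range among PBS mice than among KA mice in m6A libraries. Its m6A level at 24 h was 15.6 and 19.3 CPM in PBS mice 71 and 73 and 55.8 in PBS mouse 1. KA mice, at 29.3, 21.2, 20.9, 31.5 and 39.3 CPM, all fell between these values. A log2 fold change of -0.05 (SE 0.47) became 0.74 without PBS mouse 1, and 0.01 and 0.04 without KA mouse 98 or 97. The input library of the same PBS mouse was high as well, at 60.0 CPM, where KA mice had 25.5, 27.9 and 45.4. At 2 weeks the m6A library of PBS mouse 4 stood at 66.9 CPM and the other 4 PBS libraries between 18.4 and 21.9, while the input library of mouse 4 was at 19.8 CPM, beside 20.2 and 19.1 in the other PBS mice. KA mice had 20.8 to 39.5 CPM in m6A (median 24.6). With mouse 4 the log2 fold change was -0.09 (SE 0.34), and without it 0.47. The 2-week input libraries of KA mice had 17.1 to 40.4 CPM (median 27.4), a range that included the PBS values, with a log2 fold change of 0.53 (SE 0.26, edgeR adjusted p = 0.374).

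Tsc22d3, which encodes the glucocorticoid-induced leucine zipper GILZ, and Errfi1, an inhibitor of EGF receptor signalling, overlapped between KA and PBS mice in m6A at both times and in input at 2 weeks. Tsc22d3 in m6A at 24 h ran from 16.7 to 20.2 CPM in KA mice and was 17.9, 24.4 and 25.0 in PBS mice (log2 fold change -0.30, SE 0.24, and -0.29 within set 4). At 2 weeks its range was 17.8 to 26.0 CPM in KA and 17.6 to 25.6 in PBS mice, nearly the same span, with a log2 fold change of -0.04 and a 95% interval of -0.40 to 0.33. Its 2-week input range was 15.4 to 32.0 CPM in KA and 19.9 to 30.0 in PBS mice. Errfi1 in m6A at 24 h had 29.8, 16.3, 37.3, 55.6 and 27.8 CPM in KA mice against 27.0, 24.5 and 20.0 in PBS mice. KA mouse 79, in set 4, was the high value and KA mouse 98 the low one (log2 fold change 0.48, SE 0.34, edgeR adjusted p = 0.983). At 2 weeks Errfi1 was at 36.6 and 31.4 CPM in the PBS libraries of set 4 and at 15.8, 17.7 and 17.6 in those of set 5, with KA mice at 15.7 to 24.5. Its log2 fold change was -0.12 across all libraries and 0.45 within set 5. For 2-week input it was 0.16 (SE 0.16), with a 95% interval of -0.18 to 0.50.

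Zbtb16 encodes the zinc finger repressor PLZF, a strongly steroid-induced gene in many tissues. In input at 2 weeks PBS mice had 58.9, 36.8 and 53.8 CPM and KA mice 58.7 to 80.4 with a median of 61.7. KA mouse 42, the lowest, lay just under PBS mouse 2, the highest of its group, and the other 5 KA mice were above it (log2 fold change 0.42, SE 0.15, edgeR adjusted p = 0.282). In m6A libraries at 2 weeks the sign was the opposite. PBS mice of set 4 had 167 and 151 CPM, PBS mice of set 5 had 84.0, 61.2 and 57.0, and KA mice 45.1 to 76.8 (median 70.9), which gave a log2 fold change of -0.57 (SE 0.27, edgeR adjusted p = 0.875). Within set 5 it was 0.12. The difference between the KA effects in m6A and input was -0.999 (SE 0.36, edgeR adjusted p = 0.807). It was -0.37 with the mouse as a block, a fit that uses the 9 mice with both libraries and so leaves out the 2 PBS mice of set 4. At 24 h Zbtb16 again followed the sets in m6A: 133 and 143 CPM in PBS mice and 145 and 183 in KA mice of set 4, 88.4, 65.3 and 37.0 in KA mice of set 3, and 78.2 in the PBS mouse of set 5.

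Hif3a encodes a hypoxia-inducible factor subunit that many tissues raise under glucocorticoids, and its level was low in every library, between 0.977 and 6.39 CPM. At 24 h the m6A libraries had 4.55, 6.05, 1.26, 2.34 and 5.94 CPM in KA mice and 2.73, 5.29 and 3.69 in PBS mice. The 3 KA libraries of set 3 were the higher ones and the 2 of set 4 the lower ones, with a log2 fold change of 0.05 (SE 0.61) over all libraries, -0.01 with library size scaling and -1.22 within set 4. At 2 weeks KA mouse 7 had the highest level in both assays, 5.95 CPM in m6A and 6.39 in input, where the other KA mice had 1.55 to 2.98 and 0.977 to 2.29. The m6A log2 fold change at 2 weeks was 0.25 (SE 0.37) and became -0.08 without this mouse. In input it was -0.10 (SE 0.48) and turned to 0.06, 0.05 and 0.00058 without PBS mouse 3, KA mouse 21 and KA mouse 6.

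Plin4 encodes a perilipin, a protein of the lipid droplet surface. In m6A at 24 h KA mice had 6.06, 8.47, 19.4, 17.5 and 11.95 CPM and PBS mice 6.60, 6.15 and 11.0. The 2 highest KA mice, 97 and 79, were those of set 4, where the PBS mice had 6.60 and 6.15. Over all libraries the log2 fold change was 0.71 (SE 0.42, edgeR adjusted p = 0.983) and within set 4 it was 1.41, where edgeR's adjusted p was 0.0194 with 2 mice a group. This restriction to set 4 was added after seeing the data, and 356 genes passed in it, against 1 over all libraries. With the set as a block in all 8 libraries Plin4 was not called (edgeR adjusted p = 0.857). Its value there, also 1.41, again came from set 4 alone, since set 3 held only KA mice and set 5 only a PBS mouse. At 2 weeks PBS mice had 5.22 and 12.2 CPM in set 4 and 1.80, 2.32 and 0.152 in set 5, the last of them a single count in mouse 4. KA mice had 0.760 to 8.57 CPM (median 2.40). The difference was -0.24 (SE 0.71) on the log2 scale across all libraries, 0.62 without PBS mouse 78 and 1.60 within set 5. In input at 2 weeks PBS mice had 2.44, 1.43 and 1.57 CPM and KA mice 1.64 to 6.90 (median 3.40). KA mice 5 and 9, at 1.64 and 1.89 CPM, overlapped the PBS mice and the other 4 were above them. The log2 fold change was 1.07 (SE 0.46, edgeR adjusted p = 0.329).

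Cdkn1a encodes p21, an inhibitor of cyclin-dependent kinases that p53 induces and that glucocorticoids also raise in several cell types. In m6A at 24 h PBS mice 71, 73 and 1 had 2.19, 2.08 and 1.99 CPM, and KA mice 67, 98, 97, 79 and 8 had 7.07, 3.02, 8.09, 17.2 and 7.35. All 5 KA mice were above all 3 PBS mice. The lowest KA library, that of mouse 98, held 5 counts of the gene, and that of mouse 67 held 14. Set 3 holds no PBS library, so its KA mice could be compared only with PBS mice of other sets. The log2 fold change was 2.06 (SE 0.49, 95% interval 0.97 to 3.15), or 4.16-fold. The edgeR adjusted p was 0.341 and DESeq2's 0.00846, so the call depended on the tool. Within set 4, with 2 KA and 2 PBS mice, the log2 fold change was 2.47 (edgeR adjusted p = 0.0335). That restriction was added after seeing the data, and 356 genes passed in it, against 1 over all libraries. With the set as a block in all 8 libraries Cdkn1a was not called (edgeR adjusted p = 0.581). Its value there, 2.45, also came from set 4 alone, since set 3 held only KA mice and set 5 only a PBS mouse. Total RNA at 24 h went the same way in the few libraries at hand, with 6.91, 4.86 and 8.98 CPM in KA mice and 2.60 in the PBS mouse (log2 fold change 1.76, SE 0.85, edgeR adjusted p = 0.560), where the median gene had 0.27. At 2 weeks input libraries had 0.666, 2.00 and 1.57 CPM in PBS mice, which were 3, 7 and 9 counts, and 1.31 to 11.4 CPM in KA mice (median 4.45). KA mouse 5, with 4 counts, lay within the PBS range and the other 5 were above it. Here the log2 fold change was 1.90 (SE 0.60, 95% interval 0.60 to 3.20, edgeR adjusted p = 0.266). The 3 PBS libraries and 3 of the 6 KA libraries have no prefix, and with the set as a block the value was 1.24 (edgeR adjusted p = 0.345). That value comes from the libraries without a prefix. In m6A libraries at 2 weeks PBS mice had 1.43, 5.65, 2.16, 1.10 and 2.28 CPM and KA mice 1.58 to 6.61 (median 2.78). The groups overlapped, with a log2 fold change of 0.49 (SE 0.48) and 1.13 within set 5. It was 1.04 without PBS mouse 78, and 0.21, 0.28 and 0.31 without KA mouse 7, PBS mouse 3 or PBS mouse 50. The effect in m6A libraries at 2 weeks minus that at 24 h was -1.58 (SE 0.72, edgeR adjusted p = 1.00), and -1.01 without PBS mouse 78. In that test of the change with time, 1 of 17440 genes passed (0.00573%), again Tm4sf1, and none of the 10.

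**Figure D3:**
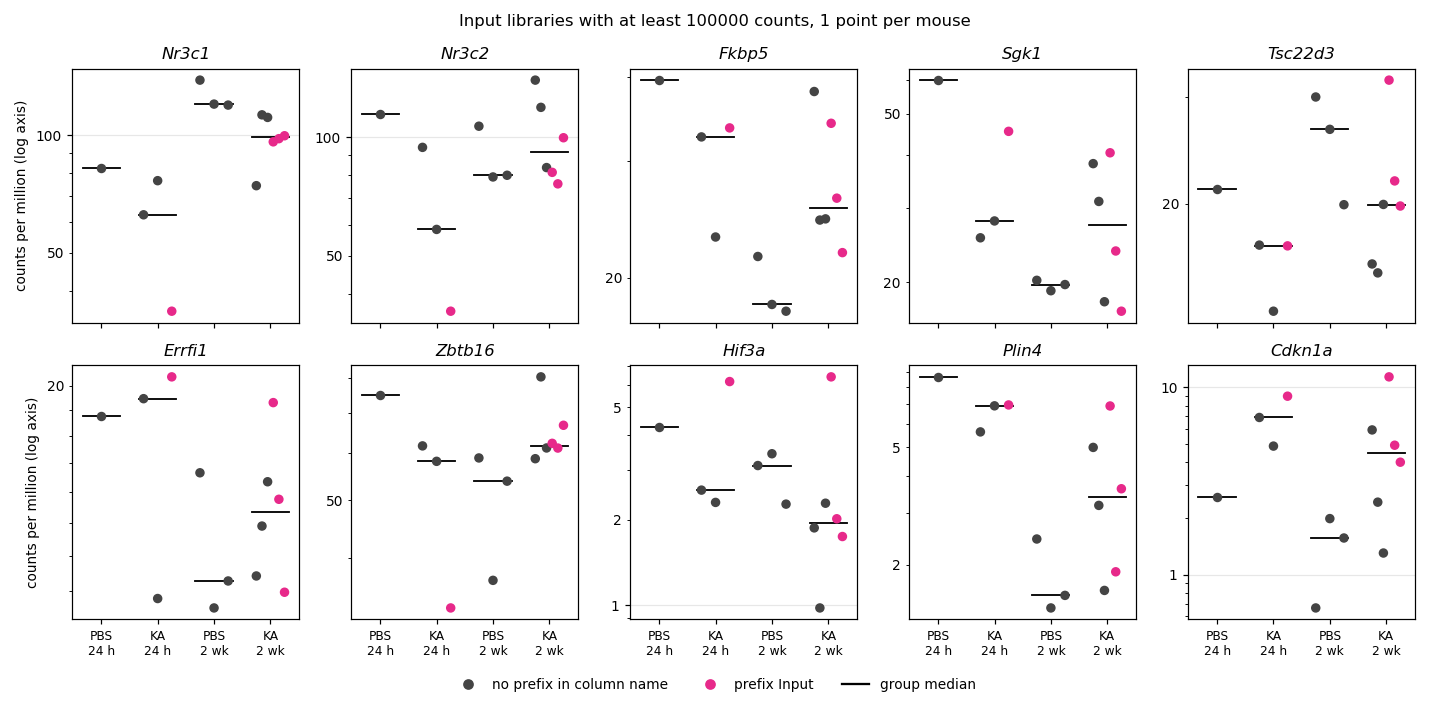
Levels of the 10 genes in the 13 input libraries with at least 100000 counts, in CPM on a log axis, with 1 point per mouse coloured by the prefix of its column name and a line at each group median. At 2 weeks the 6 KA points of Fkbp5 (21.8 to 38.1 CPM) lie above the 3 PBS points and those of Nr3c1 (74.3 to 113 CPM) below them, and mouse 7 is the highest KA point for Cdkn1a at 11.4 CPM.

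In input at 24 h the 10 genes were compared with a single PBS mouse, so the spread within that group was taken from the other input groups. The median gene had a log2 fold change of 0.27 in this comparison and -0.04 after scaling by library size. That of the 10 genes was -0.59 for Nr3c2 and -0.52 for Sgk1, and between -0.28 and 0.24 for the others apart from Cdkn1a. The 95% intervals were wide, from -1.46 to 0.42 for Sgk1 and from -1.49 to 1.87 for Hif3a. KA mouse 8 had the lowest Nr3c1, Nr3c2 and Zbtb16 levels of the 3 KA mice and the highest levels of 6 of the other members. Its m6A library was also the lowest of 5 for these 3 genes, for Fkbp5 and for Tsc22d3. This mouse stood apart in its markers too. In input its astrocyte markers summed to 872 CPM, against 3955 and 4445 in KA mice 98 and 67, and its excitatory neuron markers to 790 against 2788 and 2123. In m6A its astrocyte sum was 1098 CPM, where the other 4 KA mice had 3703 to 5310. Without it, the log2 fold change of Cdkn1a in m6A at 24 h was 2.08.

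**Figure D4:**
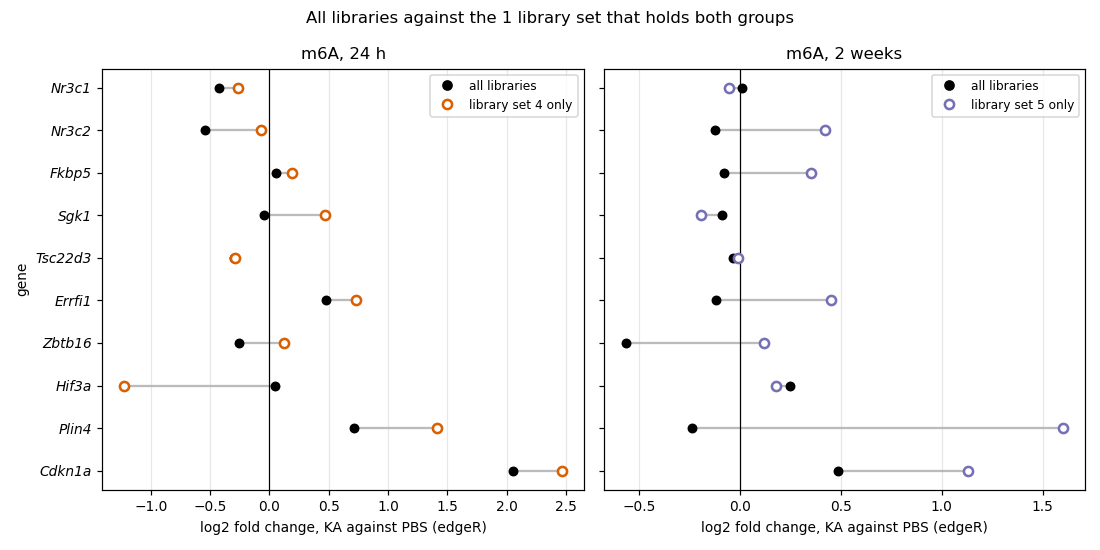
Log2 fold changes of KA over PBS in m6A libraries from all libraries (filled points) and from the library set that holds both groups (open points: set 4 at 24 h with 2 KA and 2 PBS mice, set 5 at 2 weeks with 3 KA and 3 PBS mice). Cdkn1a is above 0 in every case, from 0.49 to 2.47, while Plin4 at 2 weeks moves from -0.24 to 1.60.

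Library set 4 stood apart from set 5 for several of these genes in m6A libraries. Among the 5 PBS mice at 2 weeks, both set 4 libraries lay above all 3 set 5 libraries for Nr3c2, Fkbp5, Errfi1, Zbtb16 and Plin4, and below them for Hif3a. These were 6 of 10 members, and 55% of all genes were separated in that way, so the share among the members was near the background. At 2 weeks, restricting m6A libraries to set 5 turned the sign of 6 of the 10 log2 fold changes (Nr3c1, Nr3c2, Fkbp5, Errfi1, Zbtb16 and Plin4), and at 24 h restricting them to set 4 turned 3 (Sgk1, Zbtb16 and Hif3a). Nr3c1 moved only from 0.008 to -0.055. The share of all genes whose sign turned was not computed, so these counts are not set apart from the background. For input at 2 weeks the set without a prefix holds 3 KA and 3 PBS mice. There the log2 fold change was 0.65 for Fkbp5, 0.47 for Zbtb16 and -0.30 for Nr3c1, beside 0.58, 0.42 and -0.32 over all 9 libraries, while Nr3c2 went from 0.21 to 0.42 and Tsc22d3 from -0.25 to -0.53. Sgk1 (0.61) and Errfi1 (0.12) kept their signs. Cdkn1a, Plin4 and Hif3a had too few counts to be tested there, and with the set as a block in all 9 libraries Plin4 was 0.90 and Hif3a -0.74. Those block values also come from the set without a prefix, since libraries with the prefix Input were all of KA mice.

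Pulldown over input was compared in PBS mice at 2 weeks, which asks how strongly each transcript was recovered by the m6A antibody relative to other transcripts. Of 16141 genes tested, 373 passed an adjusted p of 0.05 in edgeR (2.31%), and none of the 10 members did. The log2 difference was 0.87 for Fkbp5 (SE 0.31, edgeR adjusted p = 0.128), 0.84 for Zbtb16 (SE 0.29, edgeR adjusted p = 0.116) and -0.59 for Nr3c1 (SE 0.20, edgeR adjusted p = 0.112). With the mouse as a block, these values were 0.40, 0.20 and -0.53 (edgeR adjusted p = 0.253, 0.559 and 0.103). They come from the 3 PBS mice with both libraries and leave out the 2 of set 4, and KA mice add only to the spread. With library size scaling and no block, which moved the median gene by 0.23, Fkbp5 and Zbtb16 passed at 1.09 and 1.06 (edgeR adjusted p = 0.0461 and 0.0418). Without the m6A library of PBS mouse 4, Zbtb16 passed at 0.99 (edgeR adjusted p = 0.0421). Within single mice, m6A CPM exceeded input CPM for Fkbp5 in 9 of 9 mice with both libraries, by log2 ratios of 0.01 to 1.09, and 12.7% of all genes had a ratio above 1 in every mouse. Errfi1 was above in 8 of 9 mice (-0.07 to 0.68), Zbtb16 in 7 and Nr3c1 in 2 of 9 (-0.53 to 0.14). Ratios spread widest for Plin4 (-3.37 to 0.70) and Cdkn1a (-1.34 to 1.70), followed by Sgk1 (-0.54 to 1.76). The lowest Plin4 ratio was that of PBS mouse 4, with 1 count in m6A. The highest Cdkn1a ratio was that of PBS mouse 2, with 3 counts in input. Apart from these libraries, Plin4 ran from -2.25 to 0.70 and Cdkn1a from -1.34 to 0.88. Whether KA changed the ratio was tested as the difference of the KA effects in m6A and input, and 0 of 16141 genes passed (0%), with 655 at an unadjusted p under 0.05. Among the members, Zbtb16 alone was at an unadjusted p under 0.05. The Cdkn1a difference was -1.37 (SE 0.84, edgeR adjusted p = 0.807), and -0.89 with the mouse as a block.

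**Figure D5:**
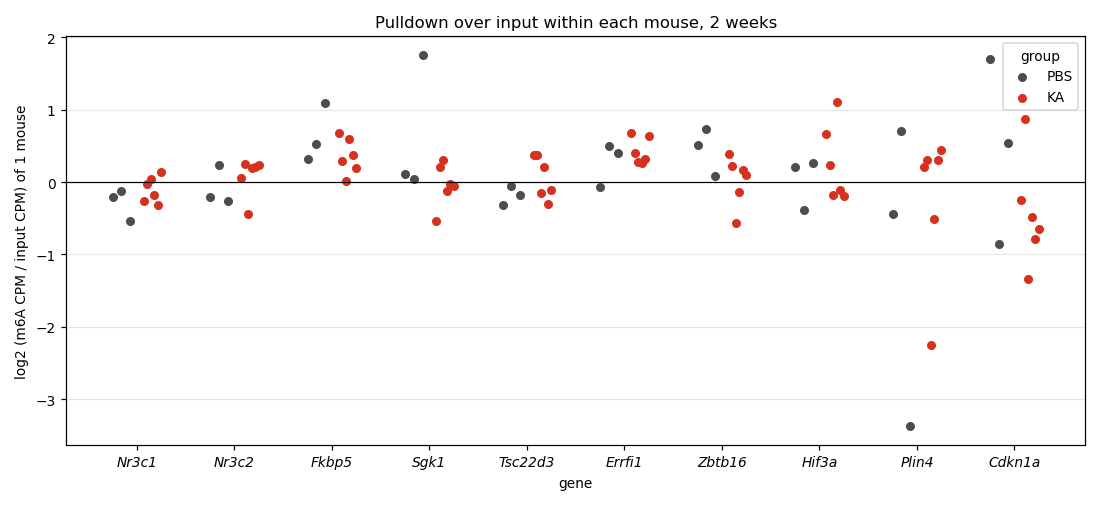
Log2 ratio of m6A CPM over input CPM within each of the 9 mice at 2 weeks that have both libraries, by gene, with 3 PBS mice in grey and 6 KA mice in red. All 9 points of Fkbp5 lie above 0 (0.01 to 1.09), and those of Plin4 and Cdkn1a spread over more than 3 log2 units. The lowest Plin4 point rests on 1 count in m6A and the highest Cdkn1a point on 3 counts in input.

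The same KA mice were at the ends of the range for several members at 2 weeks. Mouse 7 had the highest level of Sgk1, Tsc22d3, Hif3a, Plin4 and Cdkn1a among 6 KA mice in both assays, and of Errfi1 in input as well. Mouse 42 had the highest Nr3c2 and Fkbp5 and the lowest Nr3c1 of the 6 in both assays. Mouse 6 was the lowest of 6 for 7 of the 10 genes in m6A and for 3 (Fkbp5, Sgk1 and Errfi1) in input.

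Other genes of the corticosteroid pathway and of the pathways that share members with it were described by counts. None of the genes of 6 lists passed an adjusted p of 0.05 in any comparison of KA with PBS, so none is named. Of 28 further glucocorticoid-responsive genes, 17 of 27 tested had a log2 fold change above 0 in m6A at 24 h (median 0.29, all genes 0.08) and 9 of 27 in m6A at 2 weeks (median -0.22, all genes 0.00). In input at 2 weeks 22 of 25 did so (median 0.40, all genes 0.02), and in input at 24 h 20 of 28 (median 0.59, all genes 0.27). Of all genes tested, 58% were above 0 in m6A at 24 h and 49.8% in m6A at 2 weeks. In input the share was 52.4% at 2 weeks and 65.9% at 24 h. The 19 chaperones and coregulators of the receptor had medians of -0.04 in m6A at 24 h and 0.03 in input at 2 weeks. Of 14 genes of corticosteroid metabolism and the CRH system, 9 were tested in m6A at 24 h (median 0.09) and 7 in input at 2 weeks (median -0.06). The 19 p53 target genes tested besides Cdkn1a had a median of 0.23 in m6A at 24 h with 14 above 0, and the 17 tested in input at 2 weeks a median of -0.01 with 8 above 0. Lipid droplet genes other than Plin4 were above 0 for 12 of 13 tested in m6A at 24 h (median 0.50) and for 4 of 10 in input at 2 weeks (median -0.24). Hypoxia-inducible factor targets had medians of 0.30 and 0.19 in the same comparisons. In input at 24 h, 11 of 19 p53 targets were above 0, with a median of 0.14 against 0.27 over all genes. There 8 of 11 lipid droplet genes (median 0.63) and 9 of 14 hypoxia-inducible factor targets (median 0.26) were above 0. In m6A at 2 weeks the medians were -0.02 for p53 targets, 0.29 for lipid droplet genes and 0.09 for hypoxia-inducible factor targets.

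Cell type markers differed between the groups too, and their part in the results above was not tested. Of all genes, 52.4% had a log2 fold change above 0 in input at 2 weeks and 58% in m6A at 24 h. In input at 2 weeks, where 7 of the 10 members had a log2 fold change above 0, 8 of 9 astrocyte markers did (median 0.78), with a summed level of 3230 to 7461 CPM in KA and 2119 to 4342 in PBS mice. All 8 microglia markers did (median 0.65), with 191 to 417 CPM in KA and 130 to 207 in PBS mice. Thalamic markers summed to 72.1 to 128 CPM in KA and 162 to 221 in PBS mice, with no overlap and with 1 of the 6 at 0 in some KA library. Excitatory neuron markers were above 0 as well for 5 of 6 (median 0.55, sums of 1449 to 3424 CPM in KA and 1143 to 2225 in PBS mice). So were 6 of 8 for the hippocampus (median 0.32, 805 to 1456 and 697 to 903 CPM), a list that shares Neurod6 with the excitatory one. Inhibitory neuron markers were above 0 for 4 of 6, with a median of 0.04 against 0.02 over all genes. Their sums were 293 to 468 CPM in KA mice, a range that included the 307 to 349 of PBS mice. In m6A at 24 h, where Nr3c1 and Nr3c2 had log2 fold changes below 0, 1 of 8 hippocampal markers was above 0 (median -0.67, sums of 446 to 1319 CPM in KA and 1079 to 1249 in PBS mice). There 1 of 6 excitatory neuron markers was above 0 (median -0.26, 828.9 to 3594 and 2265 to 5164 CPM). The lowest sums, 446 and 828.9 CPM, were both those of KA mouse 8. The other 4 KA libraries had excitatory neuron sums of 3078 to 3594 CPM, within the PBS range, and hippocampal sums of 755 to 1319. Among PBS mice the excitatory sums were 5164 and 4610 CPM in set 4 and 2265 in set 5. Of inhibitory neuron markers, 4 of 6 were above 0 (median 0.12). In the same comparison, where Cdkn1a stood apart, all 6 choroid plexus markers were above 0 (median 1.02), with sums of 28.3 to 924 CPM in KA and 44.1 to 594 in PBS mice. Of 7 markers of infiltrating leukocytes 4 were tested there (median 1.42), with sums of 9.85 to 55.8 and 6.01 to 19.4 CPM and 4 of the 7 at 0 in at least 1 library of each group. The 55.8 was that of KA mouse 8, and the other 4 KA libraries had 9.85 to 19.2 CPM, within the PBS range. Endothelial markers summed to 307 to 509 CPM in KA and 245 to 315 in PBS mice at that time.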

How the data were processed

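Raw counts per gene symbol were deposited by the authors for each of 4 sequencing lanes. Libraries were made with a stranded total RNA kit and the submitters' processing notes name build mm10. The aligner, the counter and its strand setting were not given in the sources used here. The 4 lanes were added up, which gave 35 libraries from 140 columns, and 8 columns, read as input of KA mouse 79 (24 h) and PBS mouse 50 (2 weeks), were not used because no labelled input sample matches them. The m6A libraries of both mice were used. The assay stood in the column names of 8 libraries and was inferred from the same naming for 27, so it is not certain for those. Intervals cover counting error and the spread between mice of a group.

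Each comparison was fitted over all genes with edgeR 4.0.16 (R 4.3.3) as a robust quasi-likelihood test after TMM scaling and filterByExpr, with Benjamini-Hochberg adjustment and a threshold of 0.05, on the libraries of the groups compared. Input at 24 h was fitted together with the 2-week input libraries, because only 1 PBS library had at least 100000 counts. Pulldown over input in PBS mice was fitted with the 2-week KA libraries included, so its spread was estimated over both groups. Standard errors are the log2 fold change, without its sign, over the square root of F. Fits were tested on simulated counts. These had the same spread for every gene, no difference between library sets, and changes only in genes with ample counts. The simulation therefore does not cover set differences or genes with few counts. Tables and plots used Python 3.11.15. The alternatives were DESeq2 1.42.0, library size scaling, other filters, library set or mouse as a block, other library selections and each library left out in turn, and the restrictions to a single library set were added after seeing the data. By the labels, a mouse number is shared by m6A and input libraries of the same animal, which pairs them. Deviations of such pairs from their group means correlated between -0.01 and 0.58, over 0.1 in 7 of 9 mice. The lowest values were those of PBS mice 4 (-0.01) and 2 (0.096). Correlations between libraries of different mice were not computed beside them. No pair of replicates was identical.

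The members and lists were chosen with earlier results of these data known. All 10 members are named, and up to 3 genes of each list past the threshold would have been. Promoters are from RefSeq, build GRCm38.p6.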

Additional observations from a re-analysis of the deposited data

Results flagged for a closer look

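In groups of 4 to 10 libraries, the highest or lowest library was compared with the rest of its group for each of the 10 genes. Of 40 groups, 6 held a library set apart by a gap larger than Dixon's 95% critical value. Chance gives about 1 in 20 for independent normal values, but these are CPM of 10 genes in the same libraries. The rate over all genes was not computed, so an excess over chance is not shown. Sgk1 stood at 66.9 CPM in the m6A library of PBS mouse 4 at 2 weeks, where the other 4 ran from 18.4 to 21.9. Hif3a stood at 6.39 CPM in the input library and at 5.95 CPM in the m6A library of KA mouse 7 at 2 weeks, against at most 2.29 and 2.98 in the other KA mice. Zbtb16 was highest at 80.4 CPM in the input library of KA mouse 21, where the others reached 66.7, and lowest at 45.1 CPM in the m6A library of KA mouse 6, where the others began at 65.5. Cdkn1a was at 5.65 CPM in the m6A library of PBS mouse 78 at 2 weeks, where the other PBS mice had at most 2.28.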

How the results depend on the processing

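No member passed the threshold of 0.05 in edgeR in any comparison, and among 1196 values of members recomputed under the alternatives 6 passed it, all given above, and 86 changed sign. With DESeq2, 1 member (Cdkn1a) was called in m6A at 24 h, and the genes called in all were 156 in m6A at 24 h, 15 in m6A at 2 weeks, 116 in input at 2 weeks, 197 in input at 24 h, 5 for the change with time, 900 for pulldown over input and 4 for the KA effect on it, and Nr3c1 in m6A at 2 weeks was -0.0024. With library size scaling, 3 genes were called in m6A at 24 h, 1 in input at 24 h and 1036 for pulldown over input, where 2 members were called. That scaling gave -0.014 for Hif3a in m6A at 24 h, -0.082 for Nr3c1 in m6A at 2 weeks, and -0.083 for Errfi1 and -0.16 for Hif3a in input at 24 h, where it moved the median gene by -0.31. With no filter on low counts, 22, 2, 4, 3 and 244 genes were called in m6A at 24 h, m6A at 2 weeks, input at 2 weeks, input at 24 h and pulldown over input. Values that turned were Fkbp5 (-0.050) and Hif3a (-0.24) in m6A at 24 h, Nr3c1 (-0.0098) in m6A at 2 weeks and Sgk1 (0.011) for the change with time. All 19 m6A libraries in 1 fit gave 31 genes at 24 h and 1 at 2 weeks. Within set 4 at 24 h, 2 members (Cdkn1a and Plin4) and 356 genes were called, with Sgk1 at 0.47, Zbtb16 at 0.13 and Hif3a at -1.22. Set as a block called 0 genes there, with 0.46, 0.13 and -1.27 for the same 3 genes. That fit takes its KA effect from set 4 alone, so these values repeat the restriction. Within set 5 at 2 weeks, Nr3c1 was -0.055, Nr3c2 0.42, Fkbp5 0.35, Errfi1 0.45, Zbtb16 0.12 and Plin4 1.60, and with set as a block -0.070, 0.40, 0.33, 0.43, 0.10 and 1.58. These block values likewise take the KA effect from set 5 alone. For input at 24 h, set as a block called 2 genes and gave -0.41 for Hif3a. All 7 labelled input libraries of 24 h, 3 of them under 100000 counts, called 75 genes and gave 0.28 for Nr3c1, 0.14 for Fkbp5, 0.14 for Tsc22d3, 0.11 for Zbtb16 and 0.055 for Plin4.

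With the mouse as a replicate block, pulldown over input called 265 genes and its change with KA 1 gene, and no member. That pairing gave -0.32 for Nr3c2 and -0.76 for Plin4 in pulldown over input, and 0.21 for Nr3c2, 0.21 for Errfi1 and 0.33 for Plin4 in its change with KA.

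Leaving out each library in turn, genes called ran from 0 to 45 in m6A at 24 h (45 without KA mouse 8), 0 to 1 in m6A at 2 weeks, 0 to 1 in input at 2 weeks, 1 to 180 in input at 24 h (180 without KA mouse 8) and 53 to 647 for pulldown over input (53 without input PBS mouse 3, 647 without m6A PBS mouse 4), where members ran from 0 to 1. Signs turned in m6A at 24 h for Fkbp5 (-0.048 to 0.23), Sgk1 (-0.38 to 0.74) and Hif3a (-0.51 to 0.38). In m6A at 2 weeks they turned for Nr3c1 (-0.086 to 0.11), Nr3c2 (-0.29 to 0.068), Fkbp5 (-0.26 to 0.11), Sgk1 (-0.23 to 0.47), Tsc22d3 (-0.13 to 0.0020), Errfi1 (-0.24 to 0.063), Hif3a (-0.078 to 0.42) and Plin4 (-0.65 to 0.62). The turns of Nr3c2, Fkbp5 and Errfi1 came without PBS mouse 50 or 78, the 2 in set 4. In input they turned for Hif3a at 2 weeks (-0.29 to 0.058), and at 24 h for Fkbp5 (-0.28 to 0.093), Tsc22d3 (-0.25 to 0.040), Hif3a (-0.58 to 0.45) and Plin4 (-0.25 to 0.034). For the change with time they turned for Fkbp5 (-0.30 to 0.049), Sgk1 (-0.83 to 0.55) and Hif3a (-0.12 to 0.75), and for pulldown over input for Sgk1 (-0.21 to 0.47, negative without m6A PBS mouse 4). The PBS input library of 24 h could not be left out, since no other remained. The cause of these changes was not tested. Depth limits Cdkn1a, Hif3a and Plin4 most, since some of their libraries held under 10 counts.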
